A study of Mus musculus with 6 samples.

Results

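The genes described here encode the proteins of the mitochondrial ribosome that carry an Mrpl (large subunit) or Mrps (small subunit) symbol. They were taken by symbol from the deposited gene table, as protein-coding genes named Mrpl or Mrps followed by a number and, in some cases, a letter a, b or c. This gave 78 of the 53465 genes in the table, of which 21993 are protein coding, with 49 Mrpl and 29 Mrps genes on 17 chromosomes. RNA was sequenced from cells of mouse bone marrow sorted through the gate for long-term haematopoietic stem cells (LT-HSCs), which keeps cells with the surface proteins c-Kit and Sca-1 and without lineage markers, CD34 or Flk2. The donors were wild-type mice that had all received total body irradiation at 5.0 Gy. One group was then given saline and the other carnosine, a natural dipeptide of beta-alanine and histidine, with 3 libraries in each group. No unirradiated mice were included, so every value below belongs to irradiated marrow. The sources used here do not give the dose of carnosine or how long after irradiation it was given. The labels do not tie a library to a mouse, and the spread between libraries may therefore be technical.

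The mitochondrial ribosome sits inside the organelle and translates the few messenger RNAs that mitochondrial DNA still encodes, all of them for subunits of the respiratory chain and the ATP synthase. Its own proteins are made from nuclear genes in the cytosol and imported, and they join ribosomal RNAs transcribed within the organelle. Compared with its bacterial relative it holds many proteins that exist only in mitochondria, and blood stem cells are known to depend on tight control of mitochondrial activity.

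The libraries held 12602067 to 16866534 counts with saline and 12730837 to 13651553 with carnosine, and single members had 19 to 1785 counts in a library. Kit, the gene of c-Kit, was abundant, at 319 to 339 CPM (counts scaled to library size by TMM) with saline and 374 to 382 CPM with carnosine. Ly6a, which encodes Sca-1, was at 24.8 to 39.6 against 22.9 to 39.2 CPM. Transcripts of Cd34 were at 308 to 346 against 298 to 306 CPM. Those of Flt3, the gene of Flk2, were at 202 to 219 against 177 to 182 CPM. Both were thus abundant although the gate excludes both proteins, so LT-HSC names the gate here. Slamf1, looked at with the gate genes, was at 27.8 to 29.2 against 13.4 to 16.1 CPM. Procr, looked at likewise, was at 5.44 to 5.88 against 4.56 to 5.39 CPM. Among these genes the groups overlapped only in Ly6a. Levels of other cell types' markers, summed per library, also moved between the groups. The 8 T and NK cell markers were at 88.2 to 91.0 CPM with saline and 126 to 135 CPM with carnosine, mostly Nkg7 (79.8 to 82.6 against 109 to 116 CPM). Of the 6 T and NK cell markers tested, 5 were higher and 1, Klrb1c, was lower. Cd8a, for example, was at 2.24 to 3.33 against 8.63 to 9.89 CPM. The 11 B and plasma cell markers were at 494 to 507 CPM against 510 to 808 CPM, mostly Jchain (314 to 328 CPM against 584, 576 and 281 CPM), with 3 markers higher and 1 lower (Ms4a1). The 10 macrophage markers were at 113 to 124 CPM against 83.7 to 87.4 CPM, mostly Csf1r (80.2 to 88.9 against 46.1 to 49.4 CPM). Of the 5 macrophage markers tested, 2 rose and 2 fell. The 10 erythroid markers were at 285 to 289 CPM against 293 to 307 CPM, with 5 higher and 3 lower. No marker of these lists was at 0 in all libraries, and the part of these cells in the results below was not tested. In such bulk samples, fewer cells of a type and less RNA per cell cannot be told apart.

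Carnosine was compared with saline by edgeR's quasi-likelihood test over the 15533 genes with enough counts, with Benjamini-Hochberg adjustment and a threshold of 0.05. All 78 members were among these genes. The median change of the members was small, 0.04 on the log2 scale, and their changes ran from -0.36 to 0.68. Of the 78 members, 17 rose, 1 fell (Mrpl54) and 60 did not pass the test. The 17 that rose make 21.8% of the members, close to the 19.6% of all tested genes that were higher, while the single lower member makes 1.28%, against 19.8% of all tested genes that were lower. Among all protein-coding genes tested, 21.8% were higher and 19.99% lower. The share of higher members was thus near the background, and the share of lower members was far below it.

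The changes were modest in size. The members that rose did so by 1.12- to 1.60-fold, 5 of them by at least 1.25-fold and 1, Mrps31, by more than 1.5-fold. For 42 of the 60 members that did not pass, the 95% interval of the change lay inside 1.25-fold in both directions. For the other 18 the interval reached past 1.25-fold, on both sides in 2 of them, so a change of that size lies within the interval. Counting members whose 3 carnosine libraries all lay above or all below the 3 saline libraries gave 24 higher and 4 lower, 30.8% and 5.13% of the members, beside 26.2% and 26.1% of all tested genes. In this count without a model, too, few members lay on the lower side.

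**Figure D1:**
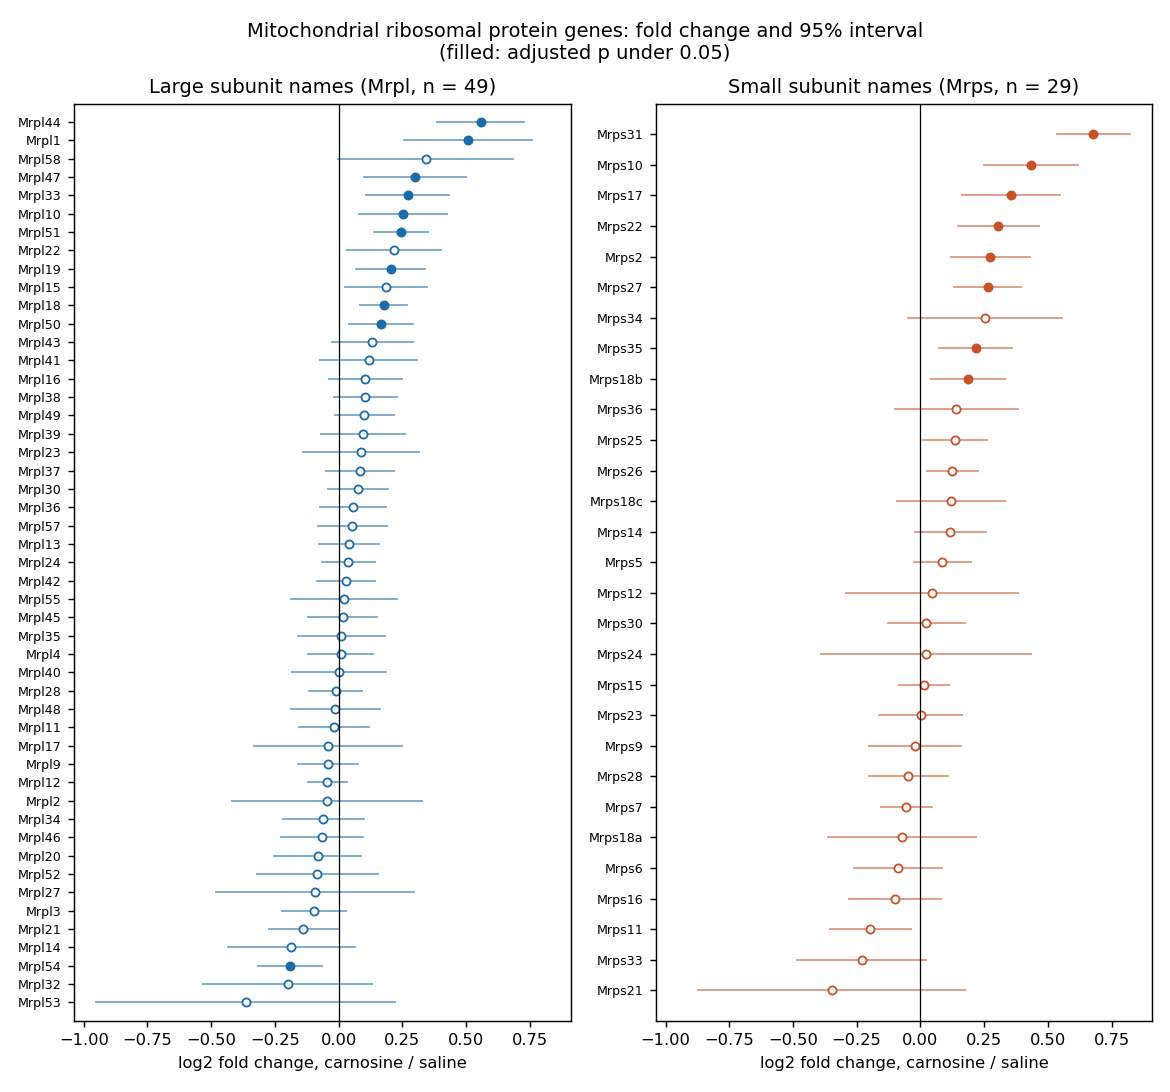
Log2 fold change of each member, carnosine over saline (x axis), with its 95% interval, for the 49 Mrpl genes (left) and the 29 Mrps genes (right), ordered by size. Filled points passed edgeR's test (adjusted p under 0.05). The points spread around 0 from -0.36 to 0.68, and 17 of the 18 filled points lie to the right of 0.

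Leaving out carnosine replicate 2 changed the number of higher members most, to 11 beside 1 lower, and moved the members' median from 0.04 to 0.07. Without any one of the other 5 libraries, 12 to 15 members were higher and 0 lower. With a library left out, the share of all tested genes that were higher was 15.7% to 16.3%, and the share lower 16.3% to 17.1%. On the deposited FPKM scale (fragments scaled to gene length and library total, log2(FPKM + 1), limma-trend with Benjamini-Hochberg adjustment) 26 members were higher and 1 lower. On that scale the split over all genes moved as well, to 25.4% higher and 16.2% lower of the 13348 genes tested.

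Promoters of the members were read from RefSeq (GRCm38.p6), as windows of 300 bases that run from 250 bases before to 50 after a start site, and 69 of the 78 members had one. The letters of 3 motifs known from promoters of nuclear genes for mitochondria were looked for on both strands. They were the NRF1 core GCGCANGCG, the ETS core CCGGAAG that GABP binds, and the YY1 core AAGATGGCG. At least 1 of them was in the promoters of 42 members, 60.9%, against 33.8% of the 10143 tested genes with a promoter and 16.5% of all 27025 genes with one. The ETS letters were in 26 members (37.7%, against 20.2% of tested genes and 9.93% of all), and the NRF1 letters in 16 (23.2%, against 15.01% and 7.03%). The YY1 letters were in 8 (11.6%, against 3.60% and 1.64%). Among members that rose, 8 of 15 with a promoter held at least 1 (53.3%), and among those that did not rise 34 of 54 (63.0%). No test was made of these shares, and a match describes the letters only. The sequences of these 8 members that rose are shown because they are the matches that stand beside a change, with the motif in capitals, as its own letters or those of the other strand.
Mrpl44, NRF1, chr1:79775973-79776001, plus strand: agaagcacttGCGCACGCGcagtacacta
Mrpl10, NRF1, chr11:97041437-97041465, plus strand: cccagctccaCGCATGCGCatagcggccc
Mrps18b, NRF1, chr17:35916646-35916674, minus strand: aacggcccgaCGCATGCGCactgggagca
Mrpl51, ETS, chr6:125192099-125192127, plus strand: caggggctaaaCCGGAAGtatttgactgg
Mrps22, ETS, chr9:98601673-98601701, minus strand: aacctctcgagCCGGAAGttgctctatcg
Mrpl33, ETS, chr5:31613937-31613965, plus strand: ccgcgcatgccCCGGAAGtagtcgttgag
Mrpl18, ETS, chr17:12916314-12916341, minus strand: actgaaaacgCCGGAAGtagggggctgc
Mrps27, ETS, chr13:99344727-99344755, plus strand: tggtaggaccaCTTCCGGcggaggcgggc
Mrps27, YY1, chr13:99344790-99344818, plus strand: ggtgcgctccAAGATGGCGgctcccatgg
Mrps18b, ETS, chr17:35916391-35916408, minus strand, up to the end of its window: gcgcagtcgctCTTCCGG

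Mrps27, a pentatricopeptide repeat protein of the small subunit, held letters of both ETS and YY1 motifs, the former 48 bases before its start site and the latter 15 bases after it. Mrps18b held letters of the NRF1 and ETS motifs. In Mrpl44 the NRF1 letters began 35 bases before the start site. Among the transcripts of these factors, Yy1 changed. Neither Nrf1, at 39.5 ± 1.05 CPM in the saline and 40.4 ± 0.829 CPM in the carnosine group, nor Gabpa, at 137 ± 5.11 and 134 ± 9.52 CPM, passed the test (SD over 3 libraries). Yy1 fell from 301 ± 5.48 to 248 ± 4.22 CPM (SD, n = 3 each). Of the 9 tested regulators of nuclear genes for mitochondria, 2 rose and 1 fell (22.2% and 11.1%, beside 19.6% and 19.8% of all tested genes). The rises were in Myc, a growth-promoting transcription factor, at 104 ± 3.17 and 167 ± 3.58 CPM, and in Gabpb2, a subunit that pairs with Gabpa, at 165 ± 6.39 and 189 ± 5.95 CPM (SD, n = 3 each).

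By name, 9 of 49 large subunit members rose and 1 fell (18.4% and 2.04%), with a median change of 0.04. In the small subunit 8 of 29 rose and 0 fell (27.6% and 0%), with a median of 0.09. These shares stand beside 19.6% higher and 19.8% lower of all tested genes. At an unadjusted p under 0.05, edgeR gave 21 members higher and 3 lower over both subunits. The share of all tested genes at that threshold was not counted, so these counts have no background beside them. The medians differed by -0.05 (large minus small), and this became -0.01 when carnosine replicate 1 was left out. The number of large subunit members that rose was 5 without saline replicate 2 or carnosine replicate 2. The difference between subunits was not tested, because the members of a subunit are not replicates.

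Some symbols do not follow the protein's place. Mrps18a and Mrps30 are built into the large subunit of the mammalian ribosome, and Mrps36 belongs to the 2-oxoglutarate dehydrogenase complex of the citric acid cycle. Sorted by place, 9 of 51 large subunit members rose and 1 fell (17.6% and 1.96%, median 0.03). Of 26 small subunit members, 8 rose and 0 fell (30.8% and 0%, median 0.10). Of all tested genes, 19.6% were higher and 19.8% lower. None of the 3 displaced members passed the test. Mrps18a had a level of 33.1 ± 2.28 CPM in the saline group and of 31.5 ± 5.21 CPM in the carnosine group, Mrps30 at 60.3 ± 2.68 and 61.3 ± 4.21 CPM, and Mrps36 at 8.14 ± 0.777 and 8.95 ± 0.479 CPM (SD, n = 3 each).

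Small subunit members were also split by origin. Of the 10 listed as mitochondria-specific, 5 rose and 0 fell (median 0.20). Of the 16 listed with a bacterial homologue, 3 rose and 0 fell (median 0.02). In the large subunit, 3 of 21 mitochondria-specific proteins rose and 1 fell (median 0.05), and 6 of 30 with a bacterial homologue rose and 0 fell (median 0.02). The mitochondria-specific classes include Mrps18b, which rose, and Mrps18a, which did not pass, although both are paralogs of a bacterial ribosomal protein. These are counts of few genes beside the 19.6% background, and no test was made between the classes.

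Mrps31, a protein of the small subunit without bacterial counterpart, had the largest change among the members that passed. It was at 15.9, 16.4 and 16.0 CPM in the saline libraries and at 26.5, 24.7 and 26.1 CPM in the carnosine libraries. The groups were far apart and narrow, and the log2 fold change was 0.68 ± 0.0607 (SE; edgeR, Benjamini-Hochberg adjusted p = 0.000159). The gene (ENSMUSG00000031533) lies on chr8:22411361-22429665, plus strand.

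Mrps22, also specific to mitochondria, was at 30.7, 30.6 and 31.5 CPM with saline and at 36.2, 36.8 and 41.8 CPM with carnosine. It rose by 0.31 ± 0.0683 (SE; edgeR adjusted p = 0.0107), and carnosine replicate 3 was the highest library. Mrps27 was at 46.3, 44.5 and 41.6 CPM against 51.5, 54.3 and 53.4 CPM, with no overlap, and rose by 0.26 ± 0.0559 (SE; edgeR adjusted p = 0.00859). The fold changes of both were near 1.2, in the middle of those that passed.

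Mrps35, at 37.9, 39.7 and 35.5 CPM against 42.3, 45.8 and 43.3 CPM, rose by 0.22 ± 0.0612 (SE; edgeR adjusted p = 0.0272). This call was lost without saline replicate 1 or 3 or carnosine replicate 2 or 3 (adjusted p = 0.0652, 0.0775, 0.0849 and 0.0577). Mrps18b is the only one of 3 paralogs of a bacterial ribosomal protein that passed. It was at 35.6, 37.0 and 36.9 CPM against 44.3, 41.5 and 38.8 CPM, a rise of 0.19 ± 0.0620 (SE; edgeR adjusted p = 0.0488). Without any one library other than carnosine replicate 3 its adjusted p was 0.0946 to 0.139. Its paralog Mrps18c, which takes the bacterial protein's place in the small subunit, was at 15.2, 14.3 and 17.5 CPM against 16.8, 16.8 and 17.3 CPM. Those groups overlapped (log2 fold change 0.12 ± 0.0897, SE; edgeR adjusted p = 0.333), and the difference between the paralogs was not tested.

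Of the small subunit members with a bacterial homologue, Mrps10, Mrps17 and Mrps2 passed. Mrps10 was at 20.002, 20.8 and 22.3 CPM in the saline libraries and at 27.1, 27.2 and 31.0 CPM in the carnosine libraries, a rise of 0.43 ± 0.0787 (SE; edgeR adjusted p = 0.00446). Mrps17 was at 25.2, 23.2 and 24.0 CPM against 33.9, 28.0 and 30.7 CPM (0.36 ± 0.0819, SE; adjusted p = 0.0122). In neither gene did the groups overlap. Mrps2 was at 60.6, 60.1 and 61.3 CPM against 76.1, 77.8 and 66.1 CPM, with carnosine replicate 3 closest to the saline group (0.27 ± 0.0662, SE; adjusted p = 0.0148). Without carnosine replicate 1 the adjusted p of Mrps2 was 0.0527.

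**Figure D2:**
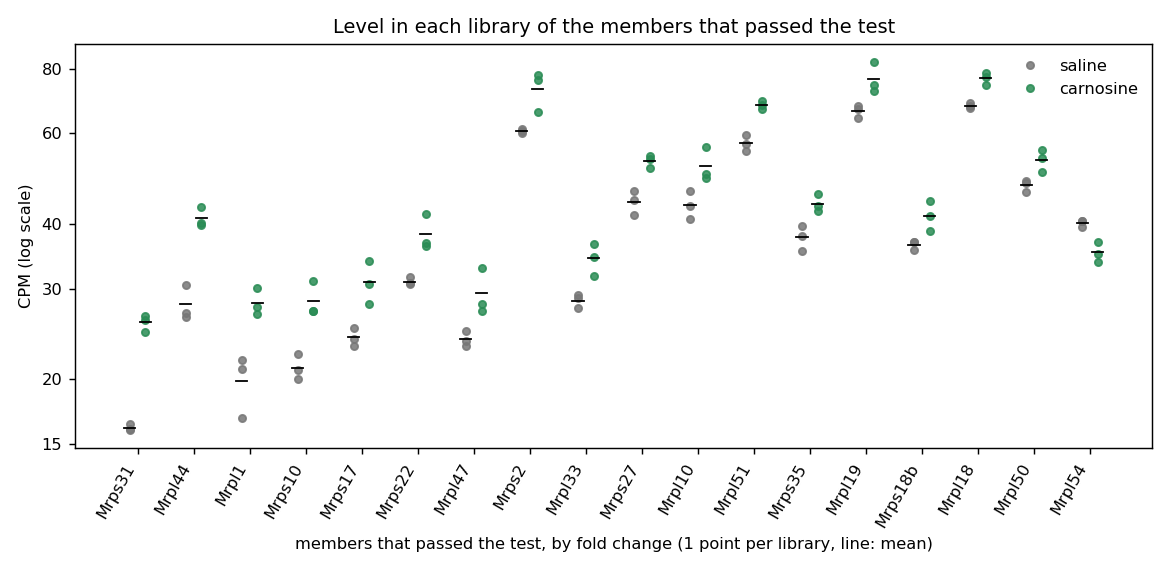
CPM of the 18 members that passed the test (log y axis), with 1 point per library (grey saline, green carnosine) and a line at each group's mean, ordered from the largest rise to the single fall. The groups do not overlap in any of the 18, and Mrps31 (16.1 against 25.8 CPM on average) shows the widest gap on this scale.

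In the large subunit, Mrpl44 and Mrpl1 changed most among those that passed. Mrpl44 has an RNase III-like fold and is needed for assembly of the large subunit. It was at 26.4, 26.9 and 30.5 CPM with saline and at 40.2, 43.1 and 39.9 CPM with carnosine, a log2 fold change of 0.56 ± 0.0724 (SE; edgeR adjusted p = 0.000934). Saline replicate 3 was the highest of its group and still far below the carnosine libraries.

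Mrpl1 belongs to the mobile arm beside the site where used transfer RNAs leave the ribosome. It was at 16.8, 21.7 and 20.96 CPM against 30.1, 27.6 and 26.7 CPM, with saline replicate 1 lowest, and rose by 0.51 ± 0.107 (SE; edgeR adjusted p = 0.00861). Mrpl51, a mitochondria-specific protein, was at 55.5, 59.5 and 57.3 CPM against 69.2, 68.1 and 67.0 CPM (0.25 ± 0.0451, SE; adjusted p = 0.0046). Mrpl18, which in bacteria helps to hold the 5S ribosomal RNA in the central protuberance, was at 68.7, 67.7 and 67.3 CPM against 77.1, 74.5 and 78.6 CPM. Its rise of 0.18 ± 0.0398 (SE; adjusted p = 0.0113) was small, but the libraries of each group were close. With DESeq2 its adjusted p was 0.0518. Of 5 central protuberance proteins it was the 1 that passed, 20%, near the 19.6% of all tested genes that were higher.

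A further 5 large subunit members rose and lost their call without some libraries. Mrpl47 was at 23.2, 23.7 and 24.8 CPM against 32.9, 28.0 and 27.2 CPM (log2 fold change 0.30, edgeR adjusted p = 0.0274), and had an adjusted p of 0.0821, 0.0767 and 0.0545 without saline replicate 1, saline replicate 2 and carnosine replicate 1. Mrpl33 was at 29.2, 28.7 and 27.5 CPM against 31.7, 34.6 and 36.7 CPM (0.27, adjusted p = 0.0181). Its adjusted p was 0.0555, 0.0515 and 0.0523 without saline replicate 3, carnosine replicate 2 and carnosine replicate 3. For both, the groups were separate but one carnosine library or more lay near the saline range.

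Mrpl10, the protein that anchors the stalk where translation factors dock, was at 46.3, 43.3 and 41.0 CPM against 49.3, 56.5 and 50.05 CPM (log2 fold change 0.25, edgeR adjusted p = 0.0298). Without saline replicate 2 or 3 or carnosine replicate 2 the adjusted p was 0.0799, 0.0889 and 0.0799. The 2 other stalk proteins did not pass: Mrpl11 was at 36.9 ± 1.09 and 36.5 ± 1.93 CPM, and Mrpl12, which Mrpl10 carries, at 107 ± 1.99 and 104 ± 1.75 CPM (SD, n = 3 each). For Mrpl12 the 95% interval of the log2 change ran from -0.12 to 0.03. The 1 of 3 stalk proteins that rose makes 33.3%, beside 19.6% of all tested genes, in a list of few genes.

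Mrpl19 was at 64.4, 66.9 and 67.9 CPM against 74.4, 82.5 and 72.7 CPM (log2 fold change 0.21, edgeR adjusted p = 0.0268), and lost its call without saline replicate 1, saline replicate 2 or carnosine replicate 2 (adjusted p = 0.0815, 0.0612 and 0.0626). Mrpl50, at 48.1, 46.2 and 48.4 CPM against 55.8, 53.8 and 50.6 CPM (0.17, adjusted p = 0.0423), kept it only without carnosine replicate 3. Without any one of the other libraries its adjusted p was 0.0757 to 0.131.

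Mrpl54, a mitochondria-specific protein of the large subunit, was the one member that fell. It was at 39.5, 40.6 and 40.5 CPM with saline and at 33.8, 36.9 and 35.1 CPM with carnosine, a log2 fold change of -0.19 ± 0.0536 (SE; edgeR adjusted p = 0.0273). The groups did not overlap, yet the call held only without carnosine replicate 2 and was lost without any one of the other libraries (adjusted p = 0.0537 to 0.0842). With the correction for GC content and length it was at 0.174, and at 60.4% GC Mrpl54 had the highest GC content of the members.

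Calls of some members with small changes also depended on the method. With the Wald test of DESeq2 the adjusted p was 0.0542 for Mrpl47, 0.146 for Mrpl50, 0.158 for Mrps18b, 0.0869 for Mrps35 and 0.124 for Mrpl54. Without a filter on low counts edgeR gave 0.0601 for Mrpl10, 0.0924 for Mrpl50, 0.0983 for Mrps18b and 0.0633 for Mrps35, and the GC and length correction gave 0.0737 for Mrpl50.

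The most variable members were not among those that passed. The examples here were chosen after their values were seen. Mrps21 was at 13.2, 13.5 and 23.5 CPM with saline and at 12.5, 13.5 and 13.1 CPM with carnosine, so that saline replicate 3 alone stood apart (log2 fold change -0.35 ± 0.223, SE; edgeR adjusted p = 0.257). Mrpl2 was at 38.0, 34.0 and 40.5 CPM against 44.7, 28.3 and 36.0 CPM, and Mrps24 at 25.5, 20.5 and 24.7 CPM against 27.0, 17.6 and 27.3 CPM, both lowest in carnosine replicate 2. In that library the peptidyl-tRNA hydrolase Mrpl58 was highest, at 17.8 CPM, where the other 5 libraries held 10.4 to 13.98 CPM. Across members the median coefficient of variation was 4.63% with saline and 5.14% with carnosine, near the 5.04% and 5.14% of all tested genes between 10 and 110 CPM.

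Added up, member transcripts made 3082, 3108 and 3128 CPM in the saline libraries and 3297, 3237 and 3267 CPM in the carnosine libraries, a ratio of the means of 1.05. The Mrpl genes summed to 2028, 2043 and 2044 CPM with saline and to 2148, 2111 and 2131 CPM with carnosine. The Mrps genes summed to 1054, 1065 and 1084 CPM with saline and to 1150, 1126 and 1136 CPM with carnosine. Each carnosine library lay above each saline library in both sums. The small subunit share of the sum was 34.2%, 34.3% and 34.7% with saline and 34.9%, 34.8% and 34.8% with carnosine, so the balance between subunits moved by less than 1 percentage point. Sorted by place it was 31.1%, 31.1% and 31.4% against 31.9%, 31.8% and 31.7%. No test was made of these sums.

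**Figure D3:**
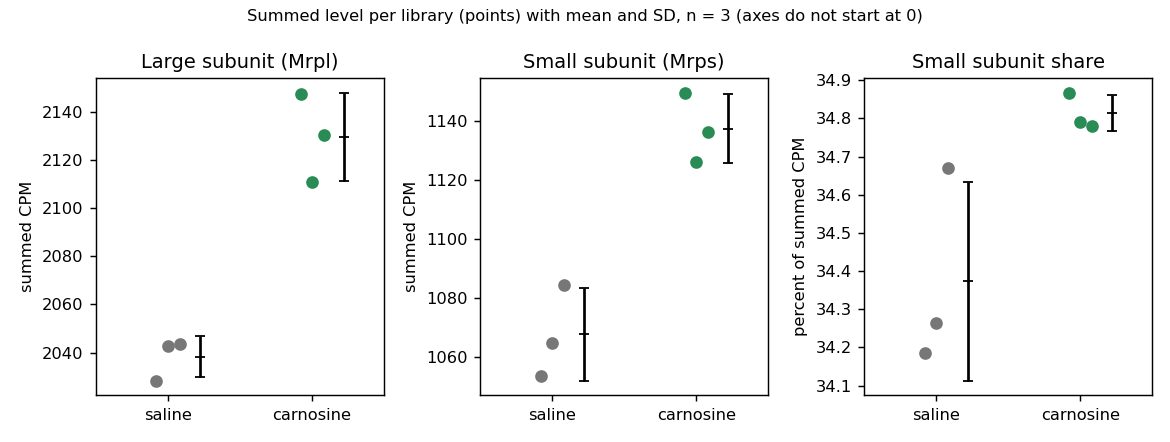
Summed CPM of the Mrpl genes (left), of the Mrps genes (middle) and the Mrps share of both in percent (right) in each library, with the mean and SD of 3 libraries per group; the y axes do not start at 0. The carnosine libraries lie above the saline libraries in each panel, at 2111 to 2148 against 2028 to 2044 CPM for Mrpl and 1126 to 1150 against 1054 to 1084 CPM for Mrps.

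Levels per length were compared between members within each library's FPKM as deposited. The mean over the 6 libraries ran from 1.299 FPKM (Mrpl53) to 69.9 FPKM (Mrpl34), with a median of 10.6 FPKM. In the large subunit Mrpl34 (70.0 ± 1.804 FPKM with saline, 69.9 ± 5.46 FPKM with carnosine; SD, n = 3 each) was followed by Mrpl12 (56.3 ± 1.13 and 56.8 ± 0.923 FPKM). The third, Mrpl16, had 31.5 ± 0.908 FPKM with saline, below the 34.7 ± 0.583 FPKM of Mrpl54, but lay above it with carnosine (35.2 ± 2.06 against 31.6 ± 1.40 FPKM), so those neighbours do not keep an order.

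At the bottom of the large subunit were Mrpl48, Mrpl58 and Mrpl53. Mrpl58 and Mrpl53 had 1.41 ± 0.145 and 1.44 ± 0.346 FPKM with saline, within each other's spread, and 1.85 ± 0.343 and 1.16 ± 0.211 FPKM with carnosine, where they were apart. In the small subunit Mrps28 (44.0 ± 1.13 FPKM with saline) stood above Mrps15 (31.1 ± 0.590 FPKM) and Mrps7 (27.3 ± 0.858 FPKM). Mrps17 and Mrps10, both of which rose, were lowest with saline, at 1.71 ± 0.0668 and 1.72 ± 0.0950 FPKM, and could not be ordered.

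These ranks depend on the gene length used. The length behind the deposited FPKM exceeded the member's longest coding transcript in GENCODE M21 by more than 1.5 times in 53 of 78 members, and by 21.4 times in Mrpl33. Per kilobase of the longest coding transcript, the highest large subunit members were Mrpl42 (92.5 CPM per kb), Mrpl12 (80.02) and Mrpl24 (75.3), and the highest of the small subunit were Mrps15 (69.9), Mrps9 (46.4) and Mrps28 (44.2). Mrpl53 (2.64) and Mrps17 (5.43) remained lowest in their subunits on this scale. Across the 78 members, which share the counts behind both scales, Pearson's r of the log2 levels was 0.70. Fold changes of the edgeR test on counts use no gene length, except in the fit with the GC and length correction.

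Some counts may mix genes, since no source used here gives the use of strand or of reads with several matches. A gene on the opposite strand overlaps 36 members and one on the same strand 13. Among the latter is Mrpl33, which rose and shares 67447 bases with the processed transcript Gm43809. Another is Mrpl53, which lies whole within the protein-coding gene model Gm42688. Processed pseudogenes carried 1865 counts beside 1490 of Mrpl23 (Mrpl23-ps1) and 1036 beside 2047 of Mrpl48 (Mrpl48-ps). A pair of Mrps36 pseudogenes, Mrps36-ps1 and Mrps36-ps2, carried 495 and 415 beside 722 of Mrps36. The levels of these members are uncertain, and none of the pseudogenes passed the test.

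The changes leaned weakly toward longer members of lower GC content. Across the 78 members, Pearson's r of the log2 fold change was -0.28 with the GC content and 0.29 with the log2 length of the longest coding transcript. Over all tested genes the value for GC content was -0.05. The 17 members that rose had a median GC content of 46.9% and a median length of 1849 bases, against 50.9% and 1223 bases in the others. With a correction for GC content and length, 18 members were higher and 0 lower, with a median change of 0.06. In that fit 21.4% of all genes tested were higher and 19.1% lower, with a median change of 0.01. Members are not independent replicates, and the part of GC content and length in the single changes was not tested further.

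**Figure D4:**
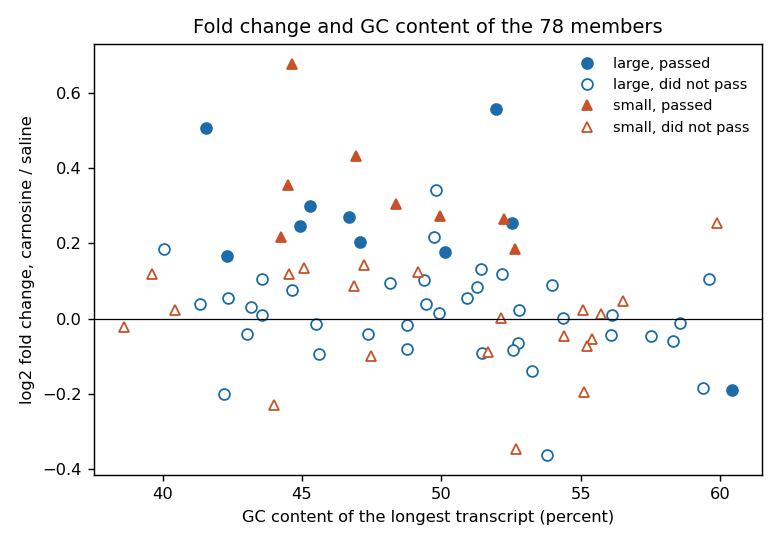
Log2 fold change of the 78 members, carnosine over saline (y axis), against the GC content of the longest transcript in percent (x axis), with circles for Mrpl and triangles for Mrps genes, filled where the test was passed. Filled points above 0 lie between 41.6% (Mrpl1) and 52.6% (Mrps18b) GC, and the filled point below 0 is Mrpl54 at 60.4%.

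Other genes around the mitochondrial ribosome were counted in lists made by function, to be read beside 19.6% higher and 19.8% lower of all tested genes. Of 6 mitoribosomal proteins without an Mrp symbol, 1 rose and 0 fell, 16.7% and 0%. Ptcd3, a pentatricopeptide repeat protein of the small subunit, was the 1 that rose (77.6 ± 1.34 against 91.8 ± 4.42 CPM, SD, n = 3 each). Of 32 genes for ribosome assembly and ribosomal RNA modification, 14 rose and 0 fell, 43.8% and 0%, with a median of 0.21. They include Ngrn (16.7 ± 0.327 against 22.4 ± 1.58 CPM), Rcc1l (29.2 ± 0.606 against 36.7 ± 2.43 CPM) and the pseudouridine synthase Trub2 (24.7 ± 1.47 against 32.6 ± 2.56 CPM), with n = 3 for each mean and SD.

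Of 14 mitochondrial translation factors, 7 rose and 1 fell, 50% and 7.14%, with a median of 0.25. The elongation factor Gfm1 rose from 103 ± 4.41 to 122 ± 0.481 CPM, the recycling factor Gfm2 from 48.1 ± 2.40 to 59.6 ± 1.40 CPM, and the initiation factor Mtif2 from 47.8 ± 1.88 to 57.3 ± 2.16 CPM (SD, n = 3 each). The one that fell was Tufm, the factor that brings transfer RNAs to the ribosome, from 97.8 ± 4.84 to 82.2 ± 8.35 CPM (SD, n = 3 each).

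Of 24 genes for mitochondrial transcription and RNA processing, 7 rose and 0 fell (29.2% and 0%, median 0.16). Fastkd5, needed for maturation of certain mitochondrial messengers, changed from 13.4 ± 0.940 to 22.4 ± 0.0290 CPM (SD, n = 3), by 0.74 on the log2 scale (edgeR adjusted p = 0.000252). Fastkd1 rose from 19.3 ± 0.699 to 26.1 ± 1.73 CPM, and the RNA exonuclease Pnpt1 from 109 ± 7.36 to 134 ± 3.23 CPM (SD, n = 3 each). Of 24 protein import genes 5 rose and 2 fell (20.8% and 8.33%, median 0.06), the share of rises being near that of all tested genes. The receptor Tomm70a rose from 246 ± 5.01 to 281 ± 1.94 CPM, whereas the receptor Tomm20 fell from 145 ± 5.53 to 118 ± 3.80 CPM and the channel subunit Timm17a from 45.9 ± 3.11 to 38.7 ± 1.75 CPM (SD, n = 3 each).

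The ribosomal proteins of the cytosol moved otherwise. Of 77 tested, 0 rose and 57 fell, with a median of -0.27, and their summed level was 24741 to 25196 CPM with saline and 20448 to 20736 CPM with carnosine. The 13 messenger RNAs that mitochondrial DNA encodes, which the mitochondrial ribosome translates, all fell, with a median of -0.25. They summed to 50821 to 51337 CPM with saline and to 44480 to 44725 CPM with carnosine. The ratio of sums was 1.05 for the members, beside 0.82 for the cytosolic ribosomal proteins and 0.87 for the mitochondrial messengers. All lists were compared over the same 6 libraries, and the differences between lists were not tested.

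**Figure D5:**
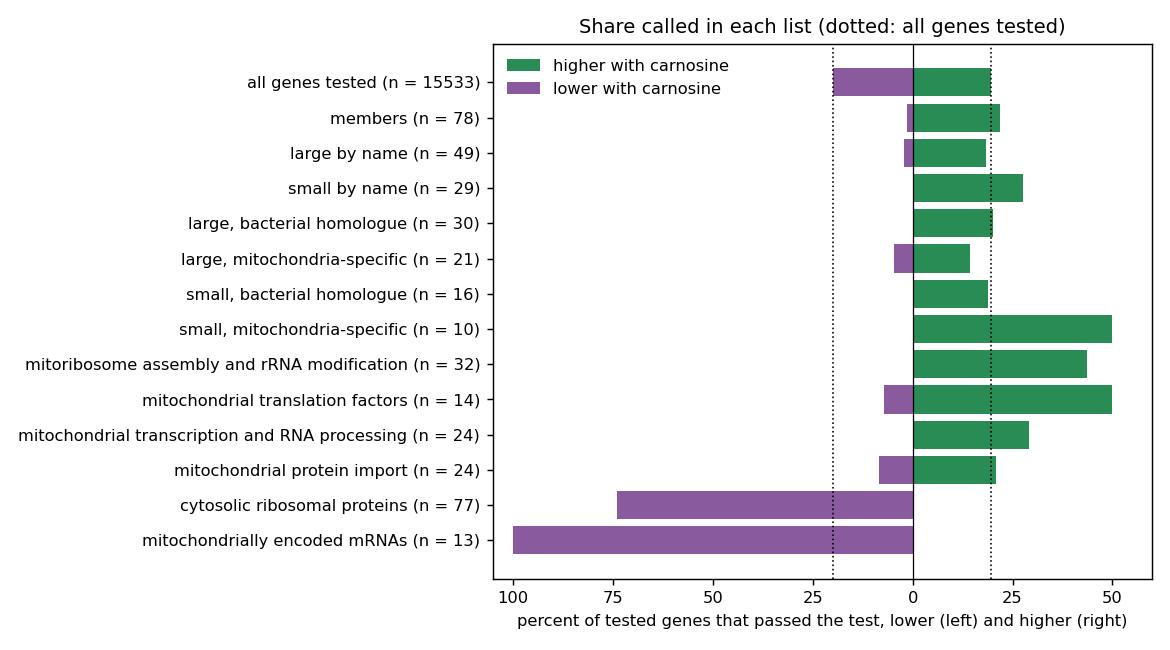
Percent of the tested genes of each list (y axis, n in parentheses) that passed edgeR's test with carnosine, higher to the right in green and lower to the left in purple; dotted lines mark all genes tested (19.6% higher, 19.8% lower). Members show 21.8% higher and 1.28% lower, while 74.0% of the cytosolic ribosomal protein genes and 100% of the mitochondrially encoded mRNAs were lower.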

How the data were processed

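Poly-A RNA of the sorted cells was made into stranded paired-end libraries, 3 per group, per the labels' protocols, and groups and replicate numbers come from the sample titles. The deposited table gives, per the file headers, a count and an FPKM value for each gene and library. The deposited counts are whole numbers, not normalized. The deposited FPKM values equal the count per kilobase of a gene length divided by the library's own total count (per the values of genes whose mean count was 100 or more). CASAVA 1.8, HISAT2, StringTie, edgeR and the build GRCm38 are named without roles in the submitters' processing notes; the annotation, strand and multiple matches in counting were not given in the sources used here, and 96.1% of identifiers lie at their GENCODE M21 position.

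The test on counts was run in edgeR 4.0.16 under R 4.3.3 (filterByExpr, TMM, quasi-likelihood F-test without covariates). The 15533 genes kept hold 99.8% of counts, the biological coefficient of variation was 0.0999, and p-values were adjusted by Benjamini-Hochberg over all of them. CPM are on the TMM scale. The standard error is the log2 fold change divided by the square root of F. Squared differences of libraries were 1.74 to 2.00 times sampling noise within groups and 11.9 to 13.6 times between them, so none was counted as a duplicate. The procedure was tested on simulated data with known changes.

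The members and lists were chosen with earlier results of these data known. Members were named by a rule: the 8 largest and 8 smallest changes among those past the threshold, the 6 smallest p-values, the 3 highest and 3 lowest mean FPKM of each subunit, the 3 Mrps18 paralogs, Mrps30 and Mrps36, and up to 3 genes per list by p-value. Mrpl33, Tufm, Timm17a, Nrf1, Gabpa and further members were named after their values were seen. The alternatives changed the scaling (DESeq2 size factors, upper quartile), the filter (none, or a minimum of 5 CPM in 3 libraries) or the test (Wald test of DESeq2 1.42.0, voom of limma 3.58.1). Others were limma-trend on log2(FPKM + 1) or log2(FPKM + 0.1), with a minimum of 1 FPKM in 3 libraries, a GC and length correction by per-library natural splines of 5 degrees of freedom, the replicate number as a block, and each library left out.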

Additional observations from a re-analysis of the deposited data

How the results depend on the processing

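Of the 18 members that passed, 9 did so without any one of the 6 libraries, and 8 of these (Mrpl1, Mrpl44, Mrpl51, Mrps10, Mrps17, Mrps22, Mrps27 and Mrps31) in all 17 alternatives; Mrpl18 was lost with DESeq2. No sign turned among the 18, and 11 other members passed in at least 1 alternative. The number of higher members was 26 in both FPKM fits, of which 15 were Mrpl genes, and 11 to 15 with a library left out. Of all genes tested, 25.4% were higher with log2(FPKM + 1) and 25.3% with log2(FPKM + 0.1). Large subunit members that rose numbered 5 to 8 with a library left out. The number of lower members was 2 with at least 5 CPM and with limma-voom, and 0 with DESeq2. It was 0 with the GC and length correction and 0 to 1 with a library left out. The share of all genes tested that were lower was 23.5% with at least 5 CPM, 19.96% with limma-voom and 8.61% with DESeq2. That share was 19.1% with the GC and length correction and 16.3% to 17.1% with a library left out. The counts of lower members thus stand beside different backgrounds. The members' median of 0.043 became 0.090 with log2(FPKM + 1), 0.095 with log2(FPKM + 0.1), 0.062 with the GC and length correction and 0.033 to 0.070 with a library left out. Over all genes tested the median moved as well, from -5.03e-05 to 0.051, 0.059 and 0.014 in the first fits named, in the same order. With a library left out the median over all genes was -0.0022 to 0.0022. Large minus small was -0.061 to -0.011 with a library left out. The cause of these shifts was not tested. At 19 to 40 counts per library, Mrpl53 was the least precise member, with a 95% interval from -0.95 to 0.22.

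Deviations from the group mean correlated at 0.0079, 0.027 and 0.021 between libraries with the same number, so the numbers were not taken as pairs, though each library correlated best with its own number, a hint from the data and not from the design. With the replicate block 12 members were higher, of which 5 were Mrpl genes, and 0 lower, beside 16.4% and 17.2% of all tested genes. The calls not made with the block were those of Mrpl10, Mrpl33, Mrpl47, Mrpl50, Mrpl54 and Mrps18b (edgeR adjusted p = 0.0507, 0.0508, 0.0595, 0.0818, 0.0534 and 0.0948). With the block and the GC and length correction 15 were higher and 0 lower, beside 18.4% and 16.5% of all tested genes.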

Other observations

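Many members share a start region with another gene. For 26 members a protein-coding gene begins head to head within 1000 bases on the other strand, and 25 of these neighbours were tested. Of these 25 neighbours, 9 rose and 3 fell with carnosine (edgeR, Benjamini-Hochberg adjusted p under 0.05), beside 21.8% higher and 19.99% lower of all tested protein-coding genes. Among the 5 members that rose and have a tested neighbour, 4 neighbours rose as well: Wdfy1 beside Mrpl44 (log2 fold change 0.54 and 0.56), Zfp189 beside Mrpl50 (0.65 and 0.17), Ncapd2 beside Mrpl51 (0.14 and 0.25) and Ptcd2 beside Mrps27 (0.38 and 0.26). The fifth neighbour, Ppp1r10 beside Mrps18b, fell by 0.51 on the log2 scale while Mrps18b rose by 0.19. Neighbours also rose beside members that did not pass: Eme1 (0.67) beside Mrpl27 (-0.09), Mtbp (0.19) beside Mrpl13 (0.04) and Ska3 (0.23) beside Mrpl57 (0.05). So did Zfp661 (0.47) beside Mrps5 (0.09) and Helq (0.24) beside Mrps18c (0.12). The other neighbours that fell were Ndufs6 (-0.28) beside Mrpl36 (0.06) and Fau (-0.13) beside Mrpl49 (0.10), members that did not pass either. Mrpl46 and Mrps11 are neighbours of each other, with overlapping starts 412 bases apart, and were at -0.07 and -0.20, neither past the threshold. The gene models overlap for Mrpl13 and Mtbp, Mrpl27 and Eme1, Mrpl36 and Ndufs6, Mrpl44 and Wdfy1, and Mrpl46 and Mrps11. These overlaps span 30 to 413 bases. Such pairs could share reads, since no source used here gives the use of strand in counting. The other pairs named here begin head to head without overlap of the gene models. These neighbours were named after their values were seen.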
